A study of Raphidocelis subcapitata with 493 samples.

Results

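The genes described here are those whose transcript level in the green alga Raphidocelis subcapitata was already raised at 3 µM of the per- and polyfluoroalkyl substance FC10diol and stayed raised at every higher concentration. There were 67 such genes among the 13429 in the count tables. They were chosen by measured values. For each gene, R was the log2 ratio of (mean CPM + 1) in the treated libraries to (mean CPM + 1) in the DMSO libraries of the same exposure, where CPM is a gene's count scaled to a library total of 1e6. R was centred on the median gene among those with a DMSO CPM of at least 5. Members had R of at least 0.8 at 3, 10, 32 and 100 µM FC10diol and a CPM of at least 10 at 100 µM. This gave 143 genes, and 76 of them were dropped because their median R over the highest concentrations of all 22 compounds was above 0.3. The FC10diol libraries from 3 to 100 µM, their DMSO libraries and the highest concentration of every compound are therefore given as a description, with no test. The DMSO libraries of the other exposures also entered the drop step, and they remain the reference in the tests against DMSO below. Which genes qualify depends on single libraries: without replicate number 1, 2 or 3 in every group the rule gave 68, 69 and 91 genes, and 44, 37 and 43 of these were among the 67.

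R. subcapitata is a single-celled freshwater alga that is widely used in toxicity testing. Algae commonly answer organic chemicals by raising genes for oxidation, conjugation and transport of foreign molecules, for redox defence and for protein repair. Genes that rise at the lowest effective concentrations are used to set the concentration at which a transcriptional response starts. The deposited tables give locus identifiers with no gene name or product, so no member's function is stated, the labelled material could not be checked against marker genes, and no sequence is shown.

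The study exposed exponentially growing cultures for 24 h to 22 compounds at 7 nominal concentrations each, and sequenced 3′ tags of polyadenylated RNA from pooled homogenates. Each of 11 exposures held 2 compounds and 3 shared libraries labelled DMSO. All wells, controls included, contained 0.33% solvent, which the protocol gives as DMSO or methanol according to the compound. Concentrations were 0.1, 0.3, 1, 3, 10, 32 and 100 µM, except for PFTrDA, whose highest was 5 µM, and the step labelled 3 µM is written as 3.2 µM in the protocol. Groups had 3 libraries, apart from PFHpA and 6:1 FTOH at 100 µM with 2 each. FC10diol shared its exposure and its DMSO libraries with FC8diol, and PFTDoDA shared its own with 8:2FTS. The labels number libraries 1 to 3 in each group and do not tie them to separate cultures. A p-value here reflects only how libraries of one exposure scatter, which may be technical. Library totals ran from 259836 to 2470296 counts with a median of 1161621, and from 856400 to 1453706 for FC10diol and its controls. In RNA from a whole culture, a changed level in every cell and a changed share of cells in some state cannot be told apart.

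The members' summed level was several times higher at the highest FC10diol concentration than in the controls, and most of the increase came from 3 µM on. Their summed level was 2001, 2078 and 2422 CPM in the DMSO libraries (mean 2167 ± 224, SD, n = 3). The 3 lowest concentrations, 0.1, 0.3 and 1 µM, gave 2761 ± 203, 2757 ± 264 and 2930 ± 130 CPM. At 3 µM the libraries held 4647, 4852 and 4952 CPM (4817 ± 155). The sum then reached 8113 ± 217, 13642 ± 487 and 19440 ± 712 CPM at 10, 32 and 100 µM. No library at 3 µM or above overlapped any library below it, which the choice of members fixes in large part. The sum was carried by few genes: 3 members made up 56.8% of it at 100 µM and 5 made up 72.7%.

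**Figure D1:**
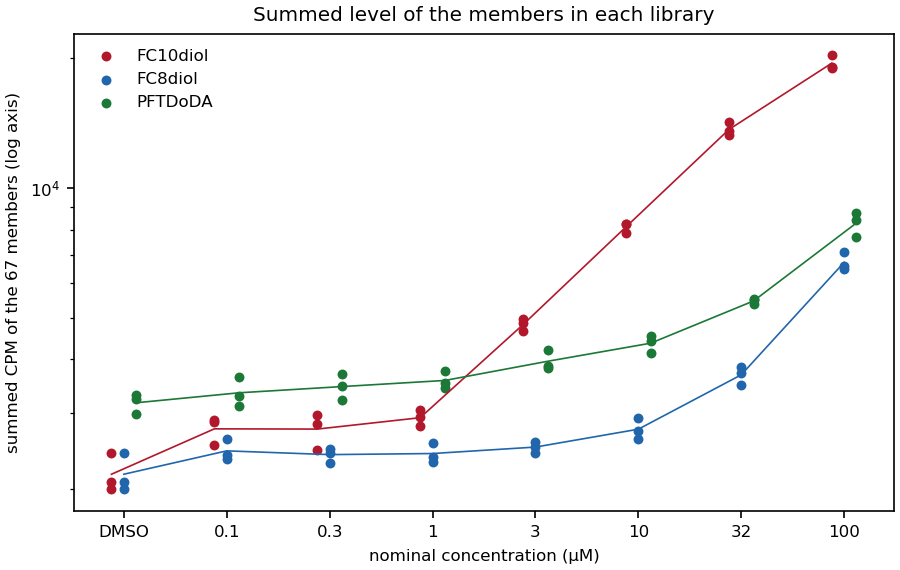
Summed CPM of the 67 members in each library (points, log axis) against nominal concentration for FC10diol, FC8diol and PFTDoDA, with lines through the group means. The FC10diol libraries leave the others at 3 µM, while FC8diol and PFTDoDA reach at most 7088 and 8748 CPM at 100 µM.

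The median over the members was higher at each step from 3 to 100 µM. Over the 67 members the median R was 1.11, 1.55, 1.81 and 2.64 at 3, 10, 32 and 100 µM, with a highest value of 10.38. By library, the members' median log2 ratio was 1.02, 1.26 and 1.16 at 3 µM and 2.59 to 2.76 at 100 µM, against -0.02, -0.08 and 0.14 in the DMSO libraries themselves. Among all genes with a DMSO CPM of at least 5, the share with R of at least 0.8 was 2.81%, 6.77%, 8.85% and 24.9% at the same concentrations. Before centring, the median gene stood at -0.05, -0.10, -0.12 and -0.49 on the log2 scale at these 4 concentrations, so a member's R at 100 µM is relative to a median that had itself gone down.

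The members did not share one concentration curve. R rose at every step from 3 to 100 µM in 31 of them. R peaked at 100 µM in 46 members and at 32 µM in 16, while 2 members peaked at 10 µM and 3 at 3 µM. From 3 to 100 µM, 41 members gained at least 1 unit of R, 20 ended within 0.5 of where they began, and 11 were lower at 100 than at 3 µM. R at 100 µM was 4 or more in 21 members. The threshold was closest at 3 µM, where 43 members had their lowest R of the 4, and 11 members had a lowest R under 0.9. The member nearest to the threshold had a lowest R of 0.806, and the nearest gene outside it had 0.798. A further 26 genes met every other criterion with a lowest R from 0.7 to 0.8.

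**Figure D2:**
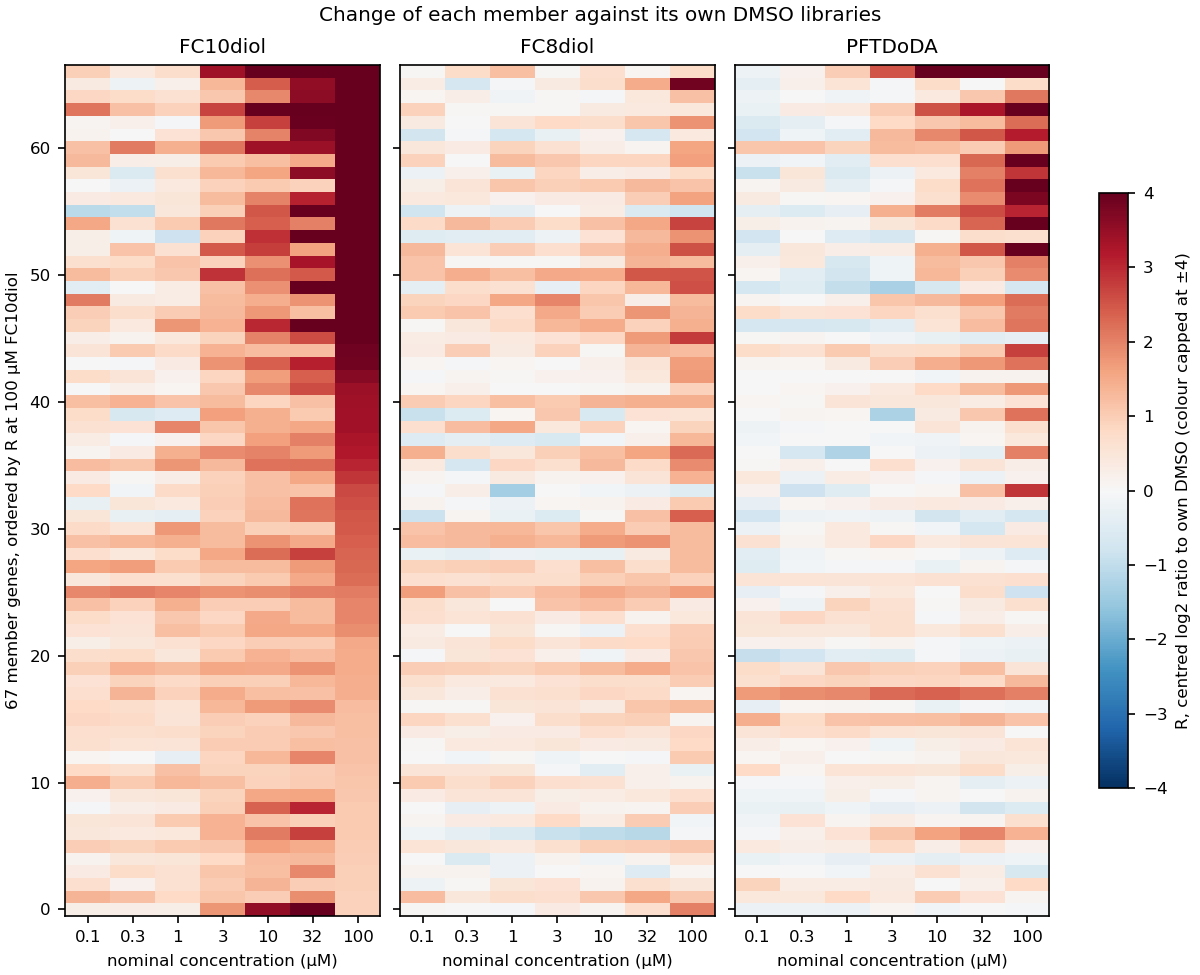
R of each of the 67 members (rows, ordered by R at 100 µM FC10diol) at 7 nominal concentrations of FC10diol, FC8diol and PFTDoDA, each against its own DMSO libraries, with colour capped at 4 on the log2 scale in both directions. Rows at the top are raised with FC10diol from 3 µM and many of them with PFTDoDA at 32 and 100 µM, and rows at the bottom have their R at 100 µM near the threshold, a few of them after a peak at 32 µM.

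Many members were nearly silent in the controls. Tags are counted at the 3′ end of transcripts, so CPM is not divided by transcript length. The members' DMSO level had a median of 7.84 CPM, from 0 to 472 CPM, beside 18.2 CPM for all genes. In 5 members no tag was counted in any of the 3 DMSO libraries, and 27 had a DMSO level under 5 CPM. Those 27 had a median R of 4.34 at 100 µM. The 31 members with a DMSO level from 5 to 50 CPM had a median of 1.46 there, and the 9 above 50 CPM had 3.28. At 100 µM the members ran from 10.1 to 5309 CPM with a median of 34.1, and 24 of them were still under 20 CPM, where a library holds few tags per gene.

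The member with the highest R, singled out after its values were seen, had no tag in the 3 DMSO libraries and was among the abundant members from 32 µM on. At 3 µM its libraries held 11.8, 5.12 and 10.4 CPM, and at 10 µM 54.5, 97.4 and 56.7 CPM. It then reached 1026, 979 and 988 CPM at 32 µM and stayed at 931, 905 and 999 CPM at 100 µM. Set against 3 counts over the 3 DMSO libraries together, 0.818 CPM, its mean of 945.0 CPM at 100 µM was at least 1155-fold higher. At 0.1, 0.3 and 1 µM no library had more than 3 tags of it.

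Whether the members were already raised below 3 µM depends on what they are compared with. Against the DMSO libraries, the median R was 0.64, 0.52 and 0.62 for 0.1, 0.3 and 1 µM, without a step between them. These values share the DMSO libraries that chose the members for a high ratio, so the choice favours R above 0 here too, and nothing is read from their counts. R was above 0 in 61, 55 and 62 of the 67 members at these concentrations and at least 0.8 in 22, 17 and 24, beside 1.73% of genes with a DMSO CPM of at least 5 at 0.1 µM. In 12 members R was at least 0.8 at all 3 low concentrations, and in 33 it was under 0.8 at all 3. Between 1 and 0.1 µM, which the rule did not use, 0 of the 65 members that passed the count filter were higher at an adjusted p under 0.05 (edgeR quasi-likelihood test, Benjamini-Hochberg over all genes), where 0.0219% of all genes tested were. DESeq2 also called 0, 5 members had an unadjusted p under 0.05, beside 5.82% of all genes, and 4 of these were higher. The members' median difference was 0.05 on the log2 scale with a median 95% half-width of 0.82.

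The controls of this exposure had low values for these genes, which a rule that picks high ratios over the same libraries favours, so the following is a description of the members chosen. Their DMSO level was the lowest of the 11 exposures, ties included, for 34 of the 67 members (50.7%). Among the 9040 genes with a DMSO CPM of at least 5 this share was 12.7%. The members did not have to meet that minimum and 27 of them were under it, so these shares come from unlike sets. For 59 members the DMSO level lay below the median of the 10 other exposures. Over all 67, the median log2 ratio to that median was -0.76, after centring on those 9040 genes, which sets their own median to 0. The members' summed DMSO level was 2167 ± 224 CPM in this exposure and 2939 ± 53 to 5703 ± 543 CPM in the 10 others (SD, n = 3 each). FC8diol, read against the same DMSO libraries, also stood above them at 0.1 to 1 µM, with a median R of 0.39 over the pooled libraries and 51 members above 0, while FC10diol had 0.68 and 62 members. With the 9 FC10diol libraries at 0.1, 0.3 and 1 µM as the reference in place of DMSO, the members' median R was 0.52, 0.96, 0.92 and 2.14 from 3 to 100 µM. R of at least 0.8 was then reached by 23, 38, 40 and 47 members. The share of all genes reaching it under this reference was not computed, so these counts are a description only.

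Under that reference, 21 of the 67 members kept R of at least 0.8 at all 4 concentrations, 10 did so only from 10 µM on, and 13 did so at none. The 21 were the steeper genes. Their median R against DMSO was 0.24, 1.34 and 4.95 at 0.1, 3 and 100 µM, while the other 46 stood at 0.71, 1.07 and 1.95. Their median DMSO level was 2.33 CPM, and that of the other 46 was 10.1 CPM. The DMSO level was the lowest of the 11 exposures in 8 of the 21 and in 26 of the 46. This split was made on values already seen and is a description only.

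**Figure D3:**
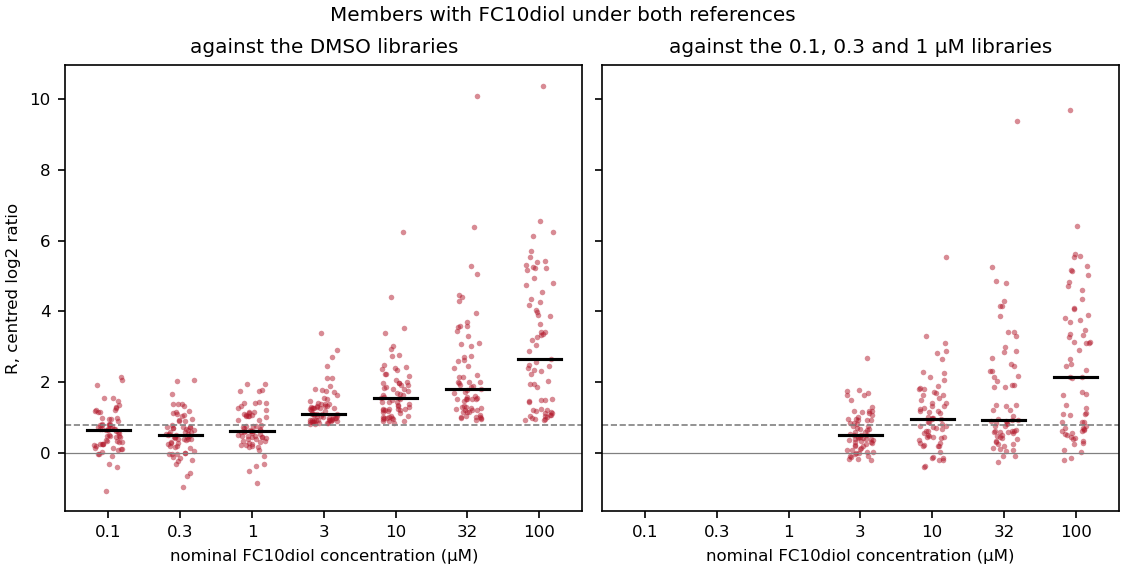
R of the 67 members (points) and their median (black bar) with FC10diol, against the 3 DMSO libraries (left) and against the 9 libraries at 0.1, 0.3 and 1 µM (right). The dashed line is the threshold of 0.8, and at 3 µM 67 members are at or above it on the left and 23 on the right.

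FC8diol, the other diol of this exposure by its short name, stood below FC10diol for these genes at each matched concentration from 3 µM, and moved most at 100 µM. The members' summed level was 2455 ± 138, 3684 ± 174 and 6714 ± 326 CPM at 0.1, 32 and 100 µM (SD, n = 3), so its highest concentration gave about what FC10diol gave between 3 and 10 µM. Against DMSO the median R from 3 to 100 µM was 0.51, 0.58, 0.69 and 1.13, where FC10diol had 1.11, 1.55, 1.81 and 2.64. Both rows share the DMSO libraries that chose the members, and the FC10diol values were chosen to be high. Against its own libraries from 0.1 to 1 µM, FC8diol had a median R of 0.16, 0.40 and 0.72 at 10, 32 and 100 µM.

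FC8diol was tested where the rule had not used its libraries, and few members were called. At 1 µM, 0 of 65 members tested were higher with FC10diol than with FC8diol at an adjusted p under 0.05 (edgeR), beside 0.0322% of all genes. DESeq2 called 2, the fit with the replicate number as a block called 3, and 12 members had an unadjusted p under 0.05, beside 11.7% of all genes, 11 of them higher with FC10diol. The members' median difference was 0.35 log2 with a median 95% half-width of 0.83, so this does not show that the diols act alike at 1 µM. Between 32 and 0.1 µM of FC8diol, 49 members passed the filter and 3 were higher, beside 1.15% of all genes, and 1 was lower, beside 0.732%. The fit with the replicate block called 7 higher, and each fit that left out one replicate number called 1.

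PFTDoDA, tested in another exposure with its own controls, raised more members than any of the 19 other compounds apart from the diols. The summed level was 3173 ± 169 CPM in its DMSO libraries, and 4361 ± 200, 5465 ± 74 and 8287 ± 547 CPM for 10, 32 and 100 µM (SD, n = 3). Of the 67 members, 61 passed the filter in its fit. At 32 µM 19 of them were higher than in DMSO (edgeR adjusted p under 0.05), beside 4.87% of all genes tested, and 1 was lower, beside 3.62%. With no filter on low counts 20 members were higher. The called members had a median log2 fold change of 2.21 and a lowest of 0.51, and 18 of the 19 were past 2-fold. Over all 61 tested the median was 0.65, from -0.82 to 7.17.

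More members were called at the higher PFTDoDA concentrations. From 0.1 to 1 µM there were 2, 3 and 2 such members, beside 0.611%, 0.927% and 0.969% of all genes. At 3 and 10 µM there were 8 and 10, beside 1.63% and 2.05%. These comparisons share their control libraries. With the 0.1 µM libraries as the reference, 16 members were higher at 32 µM, all of them also called against DMSO, beside 3.81% of all genes. The member with no tag in the FC10diol controls had 1, 1 and 0 tags in the PFTDoDA controls and then 119, 114 and 99.0 CPM at 32 µM and 416, 427 and 339 CPM at 100 µM. In the 21 FC8diol libraries it never had more than 3 tags.

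PFTDoDA was also compared with the other compound of its exposure at a matched concentration. At 32 µM, 15 members were higher with PFTDoDA than with 8:2FTS, a fluorotelomer sulfonate, beside 2.34% of all genes, and 1 was lower, beside 1.41%. Of the 15, 14 were also called against DMSO. This comparison was added after the values were seen. In the fit of 8:2FTS against the same DMSO libraries 49 members passed the filter, fewer than the 61 of the PFTDoDA fit, and a gene that passes only through the libraries where it is high had to differ. Counted over all 67 members, R at 32 µM PFTDoDA was at least 0.8 in 27 and at most -0.8 in 0. The share at or above 0.8 was 4.08% of genes with a DMSO CPM of at least 5, a minimum that the members did not have to meet. Among the 21 members that kept their rise against low FC10diol concentrations, 14 had R of at least 0.8 at 32 µM PFTDoDA, and among the other 46, 13 had. The median R was 1.26 in the 21 and 0.43 in the 46.

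With the remaining compounds the members mostly stayed near their controls, which the choice of members favours. The drop step kept genes with a median R of at most 0.3 at the highest concentrations, against the same DMSO libraries. Over 19 compounds at the concentration next below the highest, 980 tests of members gave 28 higher calls (2.86%), beside 1.19% over all genes, and 10 lower calls (1.02%), beside 0.925%. Between 42 and 58 members passed the filter with each. Without replicate number 2 the calls were 15 higher and 4 lower, and without number 1 there were 4 lower. With each compound's lowest concentration as the reference they were 14 and 5. The replicate block gave 42 higher and 15 lower, and the fit with no filter 39 and 12. The members' median log2 fold change ran from -0.07 to 0.28. With 7 compounds (PFOS, PFHpA, PFPeA, PFPB, PF4OPeA, FC8DoD and PFTrDA) no member was called in either direction. PFHxS, PFTP and 6:1 FTOH were the compounds where deviations correlated above 0.1 in every same-numbered pair of libraries. With other compounds only some pairs, or none, passed that value. With the replicate number as a block the higher calls with PFHxS, PFTP and 6:1 FTOH went from 1 to 3, from 4 to 7 and from 1 to 1.

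**Figure D4:**
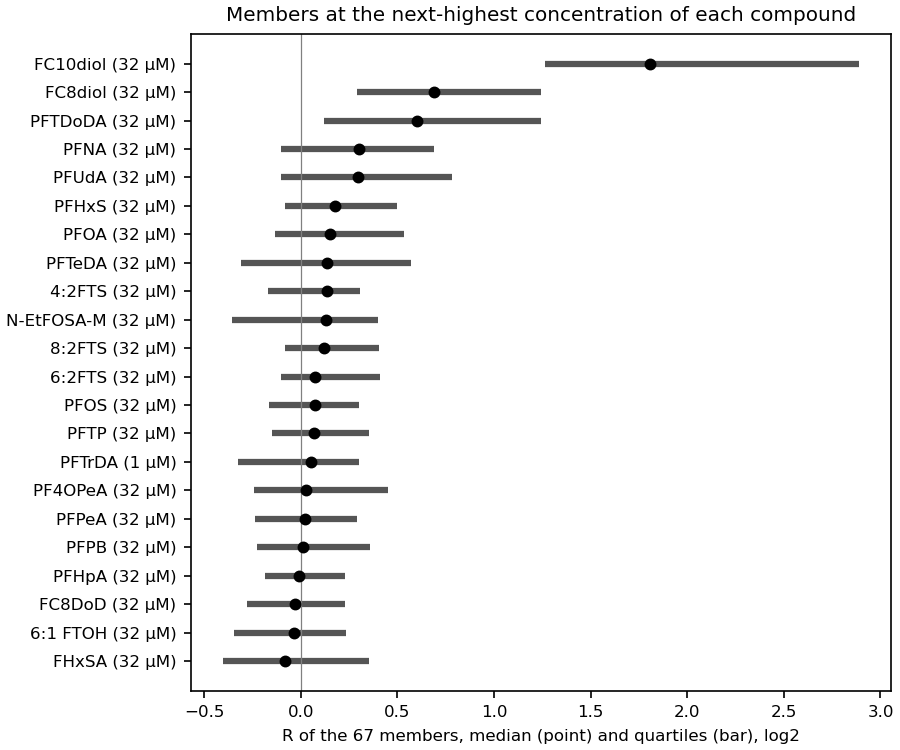
Median R of the 67 members (point) and the range from their lower to their upper quartile (bar) at the next-highest concentration of each of the 22 compounds, each against its own DMSO libraries. FC10diol at 32 µM chose the members and stands at 1.81, FC8diol at 0.69 shares its DMSO libraries, PFTDoDA is at 0.60, and the others lie between -0.08 and 0.30.

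The higher calls were gathered in a few compounds. PFUdA, a long-chain perfluorinated carboxylic acid, raised 6 of 49 members tested at 32 µM, beside 1.03% of all genes, and 5 of the 6 were also higher with PFTDoDA. Against its own 0.1 µM libraries 5 members were higher with PFUdA, beside 2.05%. FHxSA raised 6 of 55 and lowered 5, beside 6.16% and 6.57% of all genes. PFTP raised 4 of 54, beside 6.36%. N-EtFOSA-M raised 3 of 56, beside 1.7%, and lowered 2, beside 1.69%. The counts with FHxSA and PFTP were near the share of all genes called with those compounds, so they are not results about the members.

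The members were also tested at 10 µM of PFHpA, PFPeA, PFPB and 6:1 FTOH, where many genes were called. The DMSO libraries here were also those of the drop step. PFHpA, for example, had 668 genes higher and 769 lower at 10 µM, and 1 and 1 at 32 µM. Over the 4 compounds, 230 tests of members gave 8 higher calls (3.48%), beside 7.39% over all genes, and 15 lower calls (6.52%), beside 8.45%. Neither share was tested against that of all genes, and the lower calls are near it. PFPB lowered 5 of 57 members, beside 8.94%, and raised 0, beside 6.95%. The members' median log2 fold change ran from -0.17 to 0.05. With no filter on low counts there were 4 higher calls, and with the replicate block 12 higher and 20 lower. With the 0.1 µM libraries as the reference the calls were 5 higher and 8 lower. They were 3 higher without replicate number 1 or 3, and without number 2 they were 0 higher and 4 lower.

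Counting the 20 compounds other than the diols at their next-highest concentration, 29 members were higher with at least 1 compound and 5 with at least 3, beside 17.4% and 1.68% of the 10231 genes tested with any of them. Lower calls fell on 7 members, beside 12.4%, and 5 members were called in both directions with different compounds, beside 1.89%. The remaining 36 had no call, which includes the members not tested, since 65 of the 67 were tested with at least 1 compound. Among the genes tested with any, 72.1% had no call. Identifier numbers of the members were mostly scattered, with 2 pairs of consecutive numbers and 14 members within 5 numbers of another. Whether these numbers follow genome position is not given in the sources used here.

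Rsub_03690 had the highest level of all members at 100 µM FC10diol and was higher with FC8diol as well. Its DMSO libraries held 419, 426 and 572 CPM, those at 3 µM FC10diol 958, 763 and 809 CPM, and those at 100 µM 5255, 5966 and 4705 CPM. One library at 1 µM, at 777 CPM, lay above the lowest library at 3 µM. With FC8diol it went from 566, 531 and 587 CPM at 0.1 µM to 1441, 1572 and 1356 CPM at 32 µM and 3164, 3383 and 2735 CPM at 100 µM. All libraries at 32 µM lay above all at 0.1 µM, a log2 difference of 1.41 (standard error 0.10, edgeR adjusted p = 2.4e-13). It was also higher with 6:1 FTOH at 32 µM, by 1.11 log2 (SE 0.18, adjusted p = 0.00046), a call lost without replicate number 2, where the value was 1.23. With PFTDoDA at 32 µM its log2 fold change was -0.48 (adjusted p = 0.078), and it passed as lower, at -0.49, with DESeq2, also with no filter, with the replicate block (-0.48) and without replicate number 3. Over the DMSO groups of the 11 exposures its mean ran from 404 to 1138 CPM.

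Rsub_09463 was the member called higher with the most compounds, 5 of the 20, and its control level differed least between exposures of the 4 genes named here. Its DMSO libraries held 429, 461 and 491 CPM in the FC10diol exposure, and group means over the 11 exposures ran from 396 to 677 CPM. FC10diol left it between 462 and 569 CPM at 0.1 to 1 µM, then gave 993, 867 and 936 CPM at 3 µM and 3614, 3596 and 3354 CPM at 100 µM. The libraries at 3 µM lay above all those at 1 µM and below. FC8diol left it at 474, 515 and 456 CPM at 32 µM, a log2 difference of 0.05 from 0.1 µM (edgeR adjusted p = 0.87), and gave 823, 779 and 874 CPM at 100 µM.

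PFTDoDA brought Rsub_09463 from 550, 569 and 474 CPM in DMSO to 667, 729 and 733 CPM at 3 µM and 1346, 1330 and 1155 CPM at 32 µM. At 32 µM the log2 fold change was 1.25 (SE 0.10, edgeR adjusted p = 5.4e-16), and no treated library overlapped the controls. The log2 fold change was 1.49 (SE 0.15, adjusted p = 1.6e-10) with PFUdA and 0.89 (SE 0.18, adjusted p = 0.0022) with PFTeDA. It was 0.84 (SE 0.13, adjusted p = 1.8e-05) with N-EtFOSA-M and 0.29 (SE 0.09, adjusted p = 0.022) with FHxSA. The call with PFTeDA was lost without replicate number 2 or 3 (1.01 and 0.78), and that with FHxSA without any one of the 3 (0.20 to 0.38).

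Rsub_01798 was higher with 3 compounds and lower with 4. Its level climbed from 64.0, 91.3 and 91.3 CPM in DMSO to 149, 175 and 249 CPM at 3 µM FC10diol and 1965, 2474 and 2190 CPM at 100 µM. With PFTDoDA at 32 µM it held 464, 466 and 475 CPM beside 109, 123 and 138 CPM in the controls, a log2 difference of 1.90 (standard error 0.17, edgeR adjusted p = 4.3e-10). It was higher by 0.59 log2 with 6:2FTS (adjusted p = 0.0054) and by 0.50 with PFHxS (adjusted p = 0.036). Part of both gaps was already there at 0.1 µM. The means in DMSO, at 0.1 µM and at 32 µM were 262, 326 and 395 CPM with 6:2FTS. With PFHxS they were 972, 1314 and 1392 CPM. Rsub_01798 was lower with N-EtFOSA-M, at -1.01 log2 (SE 0.19, adjusted p = 0.00056), and with PFTeDA, at -0.97 (SE 0.19, adjusted p = 0.0011). It was also lower with PFUdA, at -0.70 (adjusted p = 0.0088), and with FHxSA, at -0.40 (adjusted p = 0.024). Without replicate number 1 or 2 the calls with 6:2FTS (0.48 and 0.55), PFHxS (0.36 and 0.44), PFUdA (-0.57 and -0.79) and FHxSA (-0.36 and -0.30) were lost, and without number 2 that with PFTeDA (-0.99). Its level in the controls differed most between exposures of the 4 genes named here, from 82.2 CPM in the FC10diol exposure to 2049 CPM, a 24.9-fold range. The control means of the other exposures ran from 124 to 2049 CPM. FC10diol at 3, 10 and 32 µM, with means of 191, 304 and 649 CPM, lay within that range. Its groups at 0.1, 0.3 and 1 µM, at 105, 109 and 115 CPM, lay below it. The group at 100 µM, at 2210 ± 255 CPM (SD, n = 3), lay just above it.

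Rsub_00413 was called lower with 2 compounds and higher with PFTDoDA. It held 12.4, 8.56 and 12.9 CPM in DMSO and 16.3, 22.0 and 24.2 CPM at 0.1 µM FC10diol. At 3 µM its libraries held 19.3, 20.5 and 33.0 CPM and overlapped those at 0.1 µM, so its place among the members at 3 µM rests on the DMSO libraries. At 100 µM they held 626, 748 and 597 CPM, far above all lower concentrations. PFTDoDA raised it at 32 µM to 118, 136 and 127 CPM from 43.6, 69.2 and 66.5 CPM in DMSO, a log2 difference of 1.06 (standard error 0.21, edgeR adjusted p = 0.00027). It was lower with 8:2FTS, at -0.87 log2 (SE 0.25, adjusted p = 0.045), and with FHxSA, at -0.65 (SE 0.18, adjusted p = 0.01). With 8:2FTS the mean was already 36.7 CPM at 0.1 µM, beside 59.8 CPM in DMSO. It was 32.7 CPM at 32 µM and 45.5 CPM at 100 µM. The level of Rsub_00413 at 32 µM was higher with PFTDoDA than with 8:2FTS by 1.92 log2 (SE 0.23, adjusted p = 2.9e-09), a comparison added after the values were seen. The call with 8:2FTS against DMSO was lost without any one replicate number (-0.87, -0.74 and -1.002 without numbers 1, 2 and 3), and DESeq2 gave no adjusted p for it. The call with FHxSA was lost without number 2 (-0.50). Its control means ran from 11.3 CPM in the FC10diol exposure, the lowest, to 98.3 CPM.

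**Figure D5:**
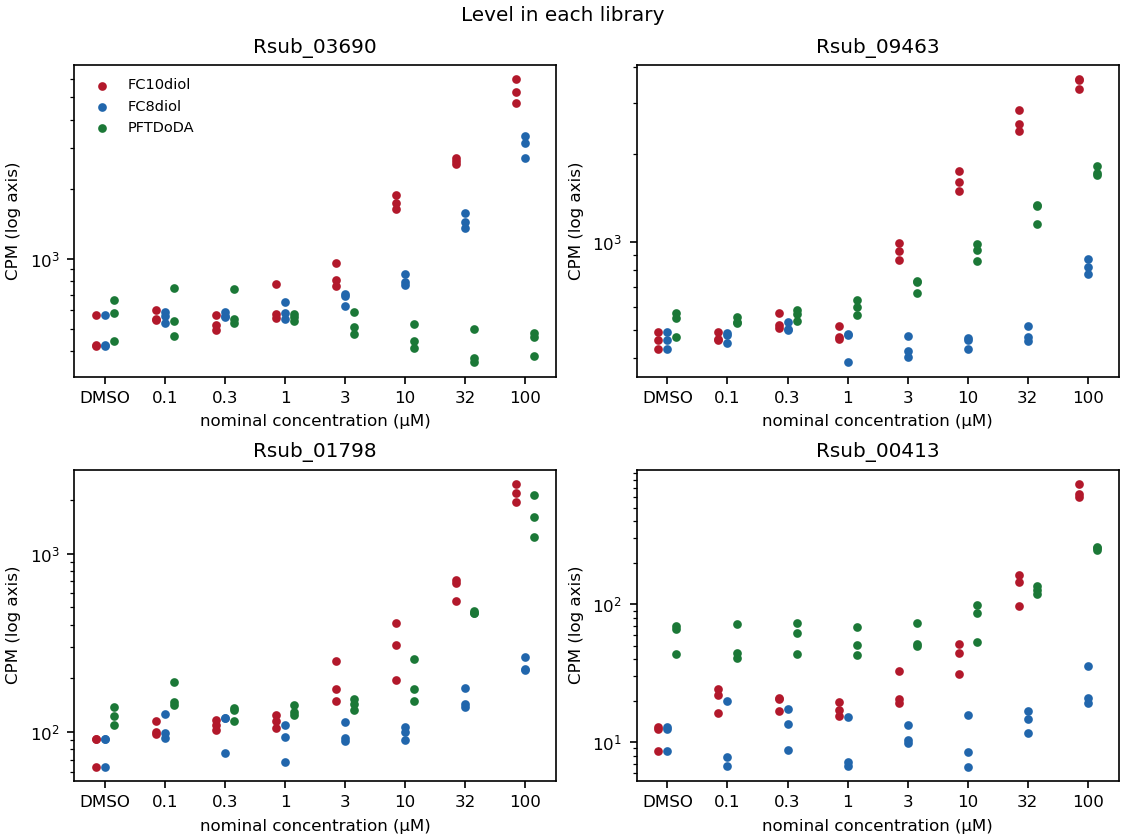
CPM of Rsub_03690, Rsub_09463, Rsub_01798 and Rsub_00413 in each library (points, log axis) against nominal concentration of FC10diol, FC8diol and PFTDoDA, with each compound's own DMSO libraries at the left. At 32 µM PFTDoDA the libraries of Rsub_03690 lie between 357 and 496 CPM, within or below its controls, while those of the other 3 genes lie above theirs.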

How the data were processed

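The authors' deposited tables hold raw counts per gene, 1 table per compound, with the same 33 DMSO columns repeated between the 2 compounds of an exposure (identical in 33 of 33 cases, and used once). Tools named in the submitters' processing notes are featureCounts 2.0.6, SAMtools 1.15.1, STAR 2.7.10a and fastp 0.23.2. Their settings and the genome build are not stated there. It is also not stated whether reads were collapsed by molecular identifier, so reads copied in amplification may still be counted. Standard errors cover only the scatter between libraries, which may be technical. In all, 493 libraries (460 treated, 33 DMSO) were mapped to groups by their labels.

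R and CPM were computed with Python 3.11.15 and pandas 2.3.3, with a pseudocount of 1 and totals over all genes. Tests used edgeR 4.0.16 in R 4.3.3: filterByExpr, TMM scaling, robust quasi-likelihood fits, 1 fit per compound with its DMSO libraries (both compounds for a contrast between them), and Benjamini-Hochberg adjustment over all genes of the fit at 0.05. A standard error is the log2 fold change divided by the square root of F. Depth was 259836 to 2470296 counts per library. The FC10diol fit was tried on simulated counts with known changes between 1 and 0.1 µM. Of changes of 1 and 2 log2 units, 61% and 98% were called, with 9 false calls among 8883 genes. Every simulated gene had the same scatter between libraries, a fixed dispersion that was not estimated from these data. The shares called therefore do not give the power for the members. Changes were placed only in genes with a mean of at least 10 CPM, so the simulation does not cover members below that level. Members, lists and tests were chosen with earlier results of these data known. Named genes were the member with the highest CPM at 100 µM FC10diol, the member called higher with the most of the 20 compounds other than the diols at the next-highest concentration, and the 2 called lower with the most.

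Alternatives were RLE scaling, no filter, DESeq2 1.42.0, the replicate number as a block, leaving out each replicate number, and the lowest concentration as the reference. The labels do not say what a shared replicate number marks. Over 27 comparisons with 81 same-numbered pairs, correlations of deviations from group means ran from -0.103 to 0.386, and every pair passed 0.1 in 3 comparisons (PFHxS, 6:1 FTOH and PFTP at 32 µM against DMSO), whose blocked counts stand beside the main ones. Lists by product name could not be formed, since no table pairs identifiers with names.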

Additional observations from a re-analysis of the deposited data

Results flagged for a closer look

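At 32 µM, 15 members were higher with PFTDoDA than with 8:2FTS in the same exposure, beside 2.34% of all genes tested. Beside 1.41% of all genes, 1 was lower. The difference was tested directly with edgeR, in a comparison added after the values were seen. A gene that passes the filter only through the libraries where it is high had to differ.

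Rsub_01798 moved in opposite directions with different compounds at the next-highest concentration. Its log2 fold change against own DMSO was 1.90 with PFTDoDA and -1.01 with N-EtFOSA-M, with every treated library above its controls in the first and below in the second. The difference between these effects, from separate exposures, was not tested. Its control means differed 24.9-fold between exposures, and the part of this in either value was not tested.

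Rsub_00413 had a log2 fold change of 1.06 with PFTDoDA and of -0.87 with 8:2FTS at 32 µM, both against the same 3 DMSO libraries. With 8:2FTS the mean was already 36.7 CPM at 0.1 µM, beside 59.8 CPM in DMSO and 32.7 CPM at 32 µM. The difference between the compounds was tested directly with edgeR, at 1.92 log2 (SE 0.23, adjusted p = 2.9e-09), in a comparison added after the values were seen.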

How the results depend on the processing

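Of 13429 genes, the rule kept 43 when the CPM minimum at 100 µM was 20, 36 when R had to be at least 1, and 143 without the drop step. With the 0.1 to 1 µM FC10diol libraries as the reference, chosen after seeing the data, it kept 26, of which 21 are among the 67. With one replicate number left out in turn it kept 68 to 91.

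The number of members higher with FC10diol than with FC8diol at 1 µM was 0, 2 with DESeq2, 3 with the replicate block, and 0 to 2 with one replicate number left out. Between 32 and 0.1 µM FC8diol it was 3, 7 with the replicate block, and 1 to 1 with one number left out. Over 19 compounds the higher calls were 28, 42 with the replicate block and 39 with no filter. They were 14 against the lowest concentration and 15 to 27 with one number left out. The lower calls were 10, 15 with the replicate block and 12 with no filter, then 5 and 4 to 9. Over 4 compounds at 10 µM the higher calls were 8, 4 with no filter and 12 with the replicate block. They were 5 against the lowest concentration and 0 to 3 with one number left out. The lower calls were 15, 20 with the replicate block, then 8 against the lowest concentration and 4 to 11. In all of these the cause was not tested, and a fit without 1 replicate number has fewer libraries.

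The members higher with PFTDoDA at 32 µM numbered 16 to 20 under the other settings and 13 to 18 with one replicate number left out. Those higher than with 8:2FTS numbered 15 in each other setting and 11 to 13. Of 139 alternatives to 20 changes of named genes, 115 kept direction and side of the threshold, 19 lost the call (6, 10 and 3 without replicate numbers 1, 2 and 3), and 4 gained one. Rsub_09463 with FC8diol at 32 µM was 0.05, -0.0254 without replicate number 2 and 0.1091 without number 3, none passing the test.

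Same-numbered libraries correlated best with their own number in 58 of 81 pairs, a hint from the data only. Apart from the counts with FC8diol, the replicate block moved no summed count of calls by over 1.5 times, though some reached that. Depth limits what can be seen for members with few tags, 24 of which stayed under 20 CPM at 100 µM FC10diol.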
